A study of Homo sapiens with 21 samples.

Results

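The genes described here are NR3C1, which encodes the glucocorticoid receptor, and 9 genes known as targets of that receptor, FKBP5, TSC22D3, DUSP1, SGK1, KLF9, ZBTB16, CEBPD, BCL6 and CRISPLD2. They are 10 of the 42339 genes listed in the count table, and each was found there as 1 row by its gene identifier. They were chosen by their CPM levels in 2D and mammosphere cells, because FKBP5 was close to absent in cells grown as monolayers and very high in mammospheres. The contrast of 3D vs. 2D cells is therefore a description of these genes, and the other comparisons are tested.

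BT-549 is an established triple-negative breast cancer (TNBC) cell line with wild-type BRCA1, and the study asked what MUC1-C, the transmembrane subunit of mucin 1, does in its stem-like cells. RNA was sequenced from 7 groups of 3 cultures. The 2D group was untreated BT-549 cells growing attached, in RPMI1640 with fetal bovine serum and insulin. The 3D group was untreated BT-549 mammospheres at serial passage 6, grown unattached in MammoCult medium. A further group of passage 6 mammospheres was treated with 0.75 μM GO-203, a peptide that blocks MUC1-C. BT-549/tet-MUC1shRNA mammospheres at passage 6 received either 0.1% DMSO as vehicle or 500 ng/ml doxycycline (DOX), which switches on the shRNA. BT-549/tet-MYCshRNA mammospheres at passage 8 received the same vehicle or the same DOX dose. Each line was transduced with a single shRNA and selected with puromycin, and no mammospheres with a control shRNA plus DOX are among the samples, so an effect of DOX itself and an effect of silencing cannot be told apart. Passage and shRNA also cannot be told apart between the 2 lines.

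The glucocorticoid receptor is held in the cytoplasm by HSP90 and its co-chaperones until it binds a glucocorticoid hormone. It then enters the nucleus, binds DNA as a dimer at glucocorticoid response elements, and switches on some genes while repressing others, among them many inflammatory cytokine genes. Among the induced genes, FKBP5 encodes a co-chaperone that lowers the hormone affinity of the receptor, TSC22D3 encodes the anti-inflammatory protein GILZ, and DUSP1 encodes a phosphatase that inactivates MAP kinases. In breast cells the receptor is known for effects on survival and on differentiation. Several of these genes also respond to other steroid receptors, which bind related DNA sequences.

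Libraries held 38026597 to 99751717 counts, and no pair of replicates agreed within counting noise. The chi-square of a pair, per degree of freedom, reached 52.8 in the DOX-treated tet-MYCshRNA group, the highest of all groups. The mesenchymal marker VIM was high in every group, at a mean of 1083 to 2479 CPM, and ZEB1 stood at group means of 95.7 to 320 CPM. CDH2, N-cadherin, had a mean of 451 CPM in 2D, 50.2 CPM in 3D and 11.8 to 75.1 CPM over all mammosphere groups. The group means of EPCAM, KRT8, KRT18 and CDH1 did not exceed 1.45 CPM, so the labelled epithelial breast origin is not visible in these epithelial markers. The group means of ESR1 and PGR did not exceed 0.974 CPM, and ERBB2 stood at group means of 20.1 to 36.1 CPM. Of the markers of other cell types, PTPRC, CD3E, CD68 and CDH5 did not exceed a group mean of 1.28 CPM and PECAM1 one of 9.40 CPM. CPM is the count scaled to a common library size, after TMM scaling over all 21 libraries, a factor that aligns the libraries on most genes. In bulk RNA, fewer cells expressing a gene and less RNA per cell cannot be told apart.

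FKBP5, for whose pattern the set was chosen, was close to absent in 2D cells and high in all mammosphere groups. In the 2D libraries it stood at 0, 0 and 0.0353 CPM, which was 2 counts in all. In 3D cells its level was 3264, 3395 and 3428 CPM, which made it the 13th, the 13th and the 12th most counted gene of those libraries, with 0.324% to 0.339% of all counts. The scaled counts in 3D were 265714 times those in 2D, with a 95% interval of 73557 to 2194090 that covers counting error only. Both counts came from 2D replicate 3, and without that library, with the 0 counts left in 2D set at a floor of 3 over the group, the level was at least 113464-fold higher in 3D. No library of any mammosphere group came near the 2D level.

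**Figure D1:**
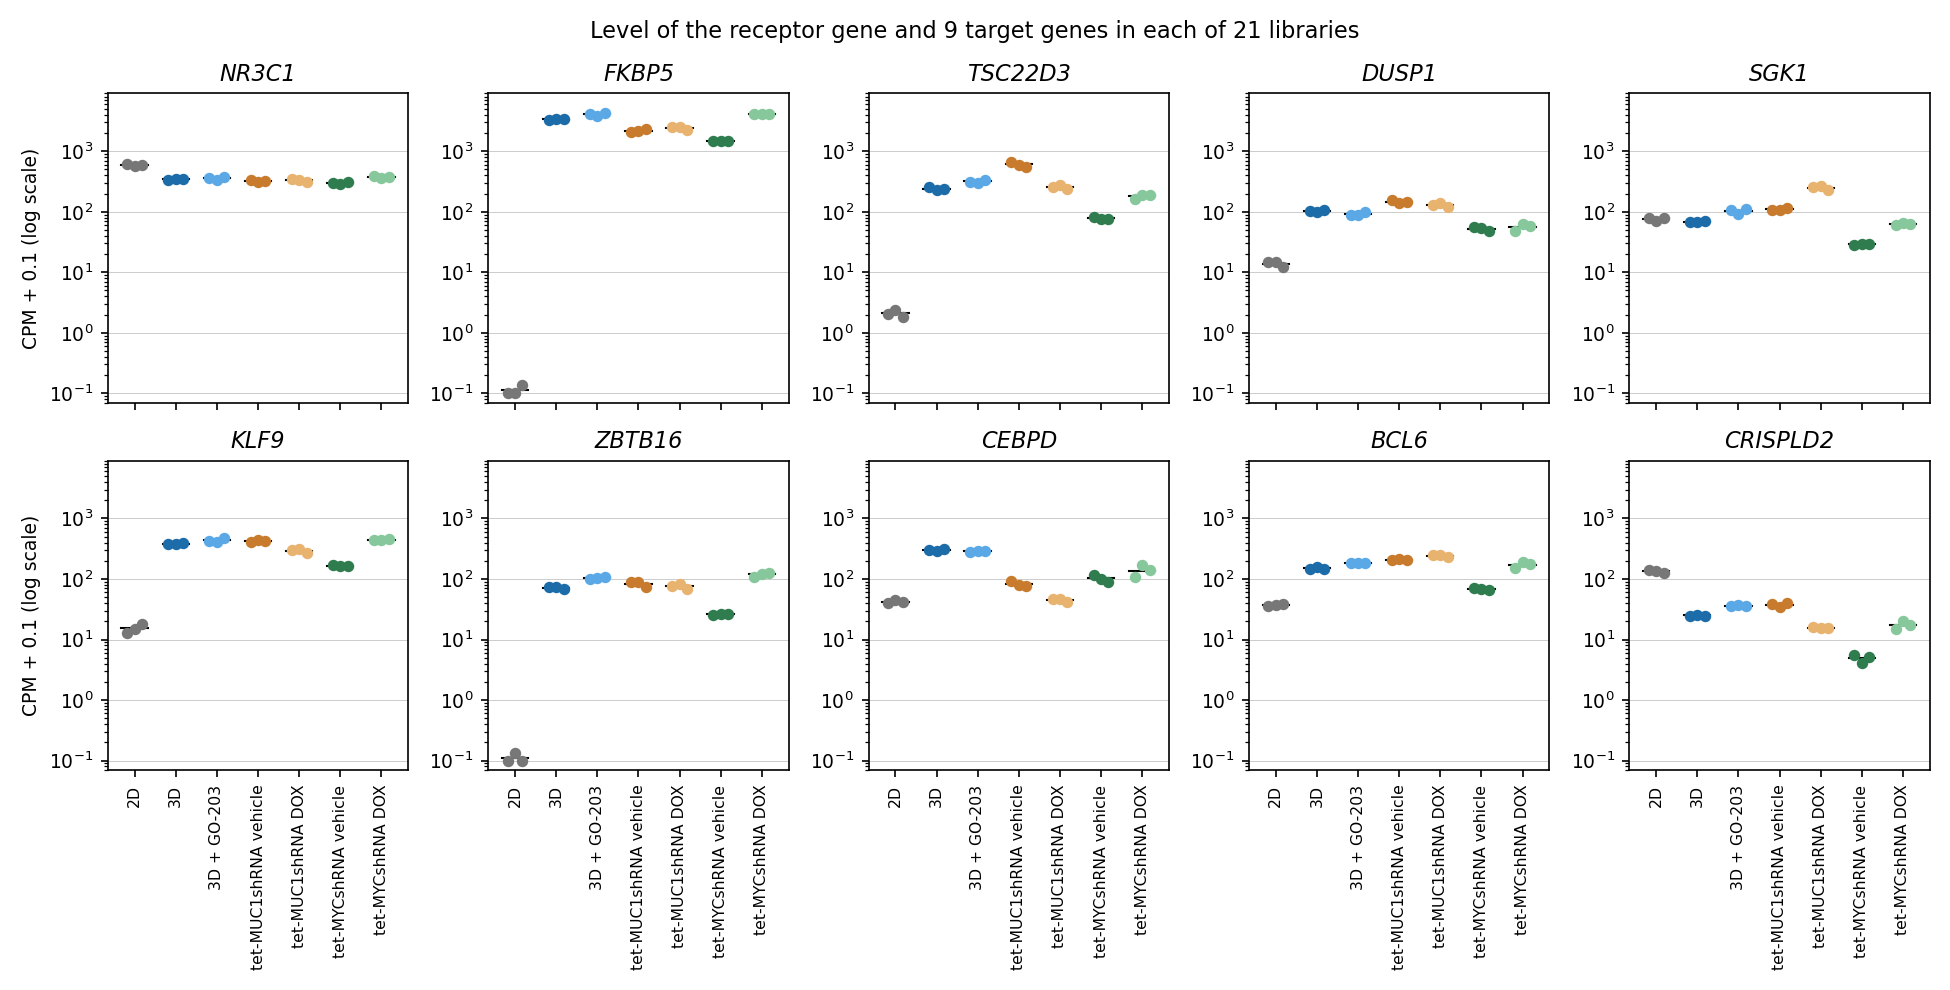
Level of the receptor gene and of each target gene in all 21 libraries, as CPM plus 0.1 on a log axis, with 3 points a group and a line at the group mean. FKBP5 and ZBTB16 lie at the bottom in 2D and high in all 6 mammosphere groups, NR3C1 varies little, and CRISPLD2 is highest in 2D.

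Among mammospheres, FKBP5 still varied. The tet-MUC1shRNA cells held 2091, 2188 and 2319 CPM with vehicle and 2523, 2508 and 2277 CPM with DOX, so these groups overlapped. The tet-MYCshRNA cells held 1503, 1468 and 1483 CPM with vehicle, the lowest level of any mammosphere group, and 4135, 4055 and 4146 CPM with DOX. GO-203-treated cells held 4105, 3884 and 4256 CPM. The order of the groups was therefore DOX-treated tet-MYCshRNA and GO-203, which overlapped, then 3D, then the overlapping tet-MUC1shRNA groups, then vehicle-treated tet-MYCshRNA, and last 2D.

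The receptor gene NR3C1 moved the other way and far less. Its level was 614, 575 and 590 CPM in 2D cells and 335, 347 and 343 CPM in 3D cells. The other mammosphere groups ranged from 291 CPM in a vehicle-treated tet-MYCshRNA library to 387 CPM in a DOX-treated tet-MYCshRNA library. The 2D libraries were above every mammosphere library, and the neighbouring mammosphere groups in the order overlapped except for the lowest, vehicle-treated tet-MYCshRNA. NR3C1 lies on chr5:143277931-143435512 of GRCh38 and FKBP5 on chr6:35573585-35728583, both on the minus strand, and no exon base of either is shared with another annotated gene.

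ZBTB16, a zinc finger repressor of transcription that is among the genes most sharply induced by glucocorticoids in many tissues, had the same on and off pattern as FKBP5 at a lower level. Its 2D libraries held 0, 0.0356 and 0 CPM, again 2 counts in all, and its 3D libraries 75.0, 73.9 and 67.2 CPM. The scaled counts in 3D were 5642 times those in 2D, with a counting interval of 1561 to 46590. Both counts came from 2D replicate 2, and without it the level was at least 2421-fold higher in 3D, against the same floor of 3 counts. ZBTB16 was highest in DOX-treated tet-MYCshRNA cells, at 107, 123 and 127 CPM, and lowest among mammospheres in the same line with vehicle, at 25.4, 26.3 and 26.2 CPM. The GO-203 libraries held 100, 105 and 107 CPM. The tet-MUC1shRNA libraries held 88.1, 89.2 and 74.8 CPM with vehicle and 75.2, 82.0 and 68.2 CPM with DOX, and these groups overlapped each other and both overlapped the 3D group.

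TSC22D3 and DUSP1, whose products restrain inflammatory signalling, were low but present in 2D cells. TSC22D3 stood at 1.96, 2.28 and 1.73 CPM in 2D and at 256, 233 and 237 CPM in 3D. Its highest level was in vehicle-treated tet-MUC1shRNA cells, at 675, 600 and 542 CPM, and with DOX that line fell to 258, 272 and 235 CPM, which overlapped the 3D group. The tet-MYCshRNA line ran the other way, from 81.4, 77.0 and 76.5 CPM with vehicle to 164, 187 and 189 CPM with DOX. GO-203 libraries held 311, 301 and 339 CPM, above all 3D libraries. The means of the 2 vehicle-treated shRNA lines were 605 CPM in tet-MUC1shRNA and 78.3 CPM in tet-MYCshRNA.

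DUSP1 stood at 14.7, 14.6 and 12.1 CPM in 2D and at 103, 100 and 106 CPM in 3D. The GO-203 libraries, at 89.9, 88.3 and 98.2 CPM, lay just below the 3D libraries. The tet-MUC1shRNA libraries held 157, 140 and 143 CPM with vehicle and 132, 142 and 118 CPM with DOX. In the tet-MYCshRNA line both groups were lower and overlapped, at 56.5, 52.9 and 48.6 CPM with vehicle and 47.1, 62.8 and 57.2 CPM with DOX.

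SGK1, a kinase that raises sodium transport and promotes cell survival, did not share the difference between 2D and 3D. It stood at 78.9, 71.5 and 78.3 CPM in 2D and at 68.6, 67.3 and 70.5 CPM in 3D, so the ranges nearly touched. Its range lay among the mammospheres. The tet-MUC1shRNA libraries rose from 105, 108 and 116 CPM with vehicle to 253, 263 and 229 CPM with DOX, the highest of all groups. The tet-MYCshRNA libraries rose from 28.2, 29.6 and 29.1 CPM, the lowest of all groups, to 61.4, 66.2 and 61.8 CPM. GO-203 libraries held 106, 91.4 and 109 CPM.

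The other transcription factor genes were all higher in 3D than in 2D. KLF9, a Krüppel-like factor that restrains proliferation in many cell types, stood at 12.5, 15.1 and 17.8 CPM in 2D and at 382, 380 and 394 CPM in 3D. Its GO-203 libraries held 423, 412 and 475 CPM. The tet-MUC1shRNA libraries held 402, 433 and 426 CPM with vehicle and 299, 314 and 264 CPM with DOX, and the tet-MYCshRNA libraries 167, 165 and 164 CPM with vehicle and 434, 440 and 453 CPM with DOX. The KLF9 levels of GO-203, vehicle-treated tet-MUC1shRNA and DOX-treated tet-MYCshRNA cells overlapped as neighbours at the top of the order.

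CEBPD, a C/EBP factor of acute phase and differentiation programs, was highest in the untransduced mammospheres. It held 39.6, 45.1 and 41.6 CPM in 2D, 305, 286 and 307 CPM in 3D and 282, 296 and 290 CPM with GO-203. In the tet-MUC1shRNA line it stood at 91.1, 80.4 and 77.2 CPM with vehicle and at 47.1, 47.4 and 41.4 CPM with DOX, a level that overlapped 2D cells. In the tet-MYCshRNA line it held 117, 101 and 90.7 CPM with vehicle and a widely spread 106, 168 and 140 CPM with DOX. Both shRNA lines, vehicle-treated cells included, were thus below the untransduced mammospheres for this gene.

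BCL6, a repressor of transcription known from germinal center B cells, stood at 35.5, 37.6 and 38.0 CPM in 2D and at 145, 158 and 147 CPM in 3D. GO-203 libraries held 181, 181 and 186 CPM. It was highest in the tet-MUC1shRNA line, at 204, 218 and 207 CPM with vehicle and 249, 249 and 228 CPM with DOX. The tet-MYCshRNA line held 70.8, 68.8 and 65.2 CPM with vehicle and 152, 188 and 179 CPM with DOX. Of the exon bases of BCL6, 8.20% overlap genes on the opposite strand, the largest share among the 10 genes, and the strand setting of the counting is not given in the sources used here.

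CRISPLD2, which encodes a secreted protein that binds lipopolysaccharide, had the opposite order of 2D and 3D cells. It stood at 143, 134 and 128 CPM in 2D, above all mammosphere libraries, and at 24.7, 25.1 and 24.7 CPM in 3D. The GO-203 libraries held 35.4, 36.5 and 35.9 CPM. In the tet-MUC1shRNA line it fell from 38.6, 33.9 and 40.3 CPM with vehicle to 15.9, 15.7 and 15.2 CPM with DOX, and in the tet-MYCshRNA line it went from 5.42, 3.92 and 5.02 CPM to 14.6, 20.2 and 17.2 CPM.

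Levels can be compared between genes only per length of exon. In 3D cells the mean level per kilobase was 316 CPM for FKBP5, 239 CPM for CEBPD and 74.1 CPM for KLF9, and NR3C1 stood at 37.3 CPM per kilobase. In 2D cells NR3C1 led the 10 genes with 64.8 CPM per kilobase, followed by CEBPD with 33.6 and CRISPLD2 with 16.9. ZBTB16 reached 4.35 CPM per kilobase in 3D and SGK1 6.91, so the gene with the second steepest contrast to 2D was still among the lower of the set per length.

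As fitted log2 fold changes of 3D vs. 2D, with no test, TSC22D3 was higher by 6.98, KLF9 by 4.72, DUSP1 by 2.96, CEBPD by 2.89 and BCL6 by 2.07, whereas NR3C1 differed by -0.74, SGK1 by -0.09 and CRISPLD2 by -2.39. With FKBP5 and ZBTB16, 7 of the 10 genes were above a log2 fold change of 1.5 and 1 below -1.5, and a change of that size in either direction was seen in 16.2% of the 19190 genes fitted. With CPM scaled over the 6 libraries of the comparison, here and in the comparisons that follow, the ranges did not overlap for 9 of the 10 genes, all but SGK1, against 63.9% of genes fitted. All 10 genes passed the filter on low counts, FKBP5 and ZBTB16 through the 3D libraries alone. These genes were chosen with this contrast in view, so the counts are no evidence about it. Growth format and medium changed together between 2D and 3D and cannot be told apart, and the glucocorticoid content of either medium is not given in the sources used here.

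Silencing MUC1 moved the receptor's targets in both directions. MUC1 itself was 101, 82.4 and 85.3 CPM with vehicle and 20.2, 21.6 and 23.1 CPM with DOX, a log2 fold change of -2.06 (SE 0.07, adjusted p = 3.0e-15). MYC rose by 0.25 in the same libraries (SE 0.04, adjusted p = 5.0e-05), from a mean of 242 to 290 CPM. TSC22D3, CRISPLD2, CEBPD and KLF9 fell, and SGK1 rose to 2.25 times its vehicle level. The log2 fold changes were -1.26 for TSC22D3 (SE 0.06, adjusted p = 2.0e-13), -1.28 for CRISPLD2 (SE 0.07, adjusted p = 2.4e-12), -0.88 for CEBPD (SE 0.06, adjusted p = 7.5e-11) and -0.54 for KLF9 (SE 0.05, adjusted p = 5.1e-09). SGK1 rose by 1.17 (SE 0.05, adjusted p = 2.6e-14), in 3 of 3 DOX libraries.

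The other members changed little on MUC1 silencing. BCL6 rose by 0.20 on the log2 scale (SE 0.04, adjusted p = 4.9e-04) and FKBP5 by 0.14 (SE 0.04, adjusted p = 0.010). DUSP1 fell by 0.18 (SE 0.05, adjusted p = 0.0065) and ZBTB16 by 0.17 (SE 0.06, adjusted p = 0.028), while NR3C1 gave 0.03 (SE 0.04, adjusted p = 0.58). At an adjusted p below 0.1 by edgeR, 9 of the 10 genes passed, 3 higher and 6 lower, where 62.2% of the 19220 genes tested passed, 30.7% higher and 31.6% lower. The median log2 fold change was -0.18 over the 10 genes and 0.02 over all genes tested. The groups did not overlap for 7 genes, against 62.6% of all genes. None passed a log2 fold change of 1.5 in addition, as 8.82% of genes did. Scaled by library size alone, which moved the median of all genes to 0.19, ZBTB16 gave -0.00 (adjusted p = 0.97) and DUSP1 -0.01 (adjusted p = 0.82), NR3C1 passed at 0.19 (adjusted p = 1.7e-04), and the split became 4 higher and 4 lower. ZBTB16 also missed the threshold without vehicle replicate 2, DOX replicate 1 or DOX replicate 3 (adjusted p of 0.11, 0.10 and 0.16), and FKBP5 in a fit of all 21 libraries (0.11, adjusted p = 0.13).

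**Figure D2:**
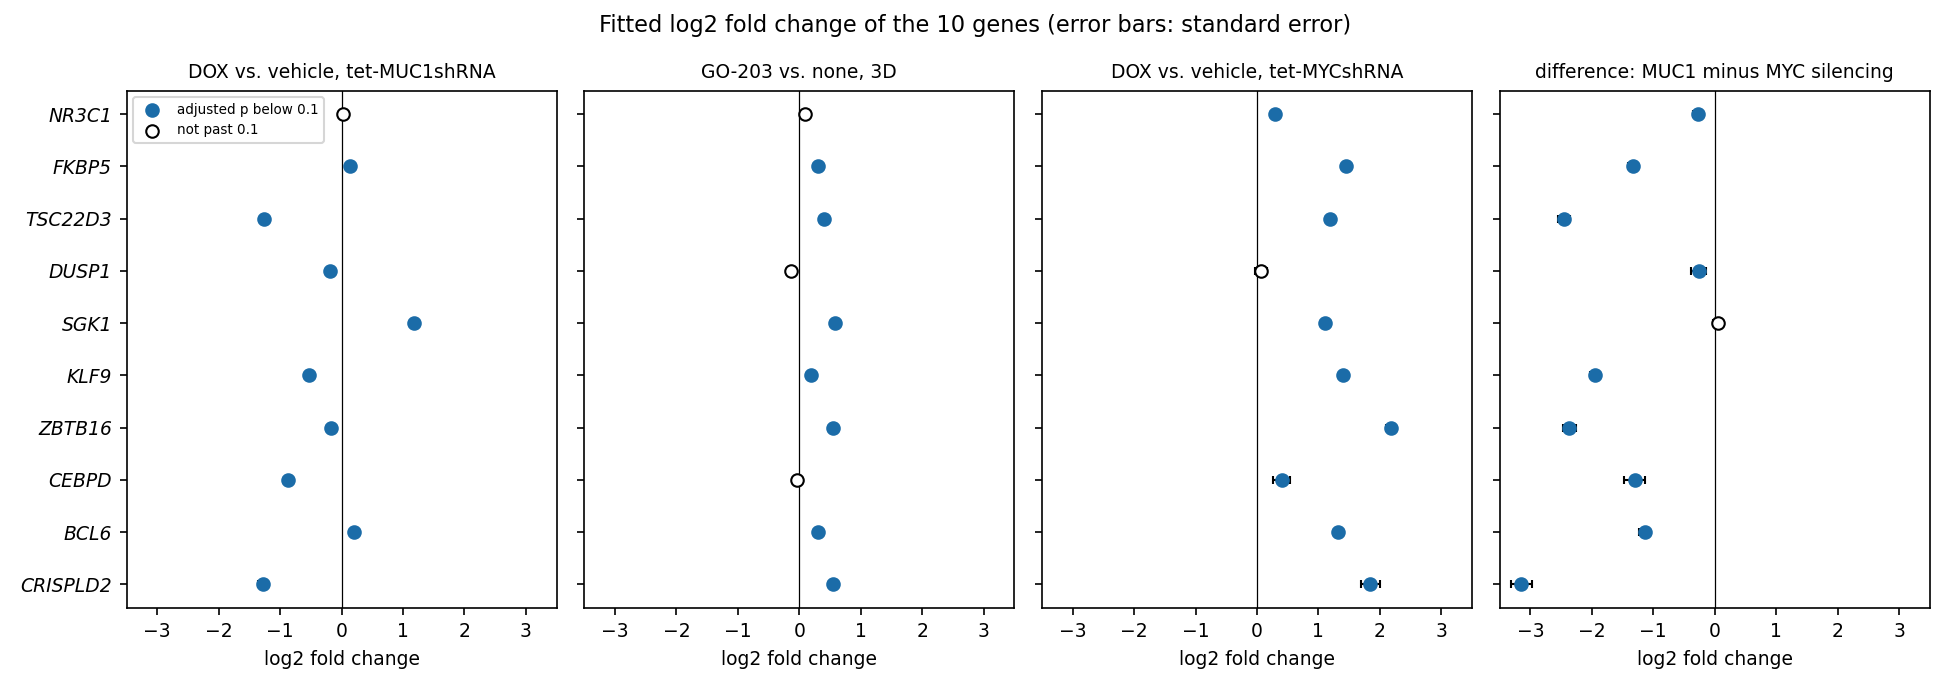
Fitted log2 fold change of each gene (horizontal axis, log2) for MUC1 silencing, GO-203 and MYC silencing, and the difference of the silencing effects, with standard errors as bars. Filled points passed an adjusted p of 0.1. The MYC silencing values lie from 0.06 to 2.18, and the MUC1 silencing values from -1.28 to 1.17.

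GO-203 raised most of the targets by a small amount and lowered none past the threshold. MYC was 577, 545 and 584 CPM without and 543, 542 and 587 CPM with GO-203, and MUC1 was higher by 0.33 on the log2 scale (SE 0.07, adjusted p = 0.0019). SGK1 rose by 0.59 (SE 0.07, adjusted p = 9.6e-07), CRISPLD2 by 0.55 (SE 0.06, adjusted p = 9.6e-07) and ZBTB16 by 0.55 (SE 0.06, adjusted p = 9.6e-07). TSC22D3 rose by 0.41 (SE 0.06, adjusted p = 2.6e-05), BCL6 by 0.30 (SE 0.06, adjusted p = 5.8e-04), FKBP5 by 0.30 (SE 0.04, adjusted p = 1.8e-05) and KLF9 by 0.20 (SE 0.06, adjusted p = 0.015).

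NR3C1 gave 0.09 with GO-203 (SE 0.05, adjusted p = 0.30), DUSP1 -0.14 (SE 0.06, adjusted p = 0.11) and CEBPD -0.03 (SE 0.05, adjusted p = 0.74). The count was 7 of 10 genes higher and 0 lower by edgeR, where 24.1% of 18488 genes passed, 11.1% higher and 12.9% lower. The median log2 fold change was 0.30 over the 10 genes and 0.02 over all genes tested. The groups did not overlap for 8 of the 10 genes, against 33.5% of all genes, and 0 of the 10 also exceeded a log2 fold change of 1.5, as 0.757% of genes did. The call of KLF9 rested on GO-203 replicate 3, without which it gave 0.14 (adjusted p = 0.12), and it was also lost in the fit of all 21 libraries (adjusted p = 0.16). DUSP1 was lower past the threshold in DESeq2 (adjusted p = 0.054), by library size alone, under the stricter count filter, with the replicate block and without GO-203 replicate 3. The same 3D libraries serve as controls here and in the 3D vs. 2D description.

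On MYC silencing the receptor gene and all targets but DUSP1 rose. MYC itself went from 446, 425 and 382 CPM with vehicle to 239, 282 and 304 CPM with DOX, a log2 fold change of -0.62 (SE 0.08, adjusted p = 9.1e-05). MUC1 rose by 1.25 in the same libraries (SE 0.11, adjusted p = 5.1e-06), from a mean of 69.4 to 168 CPM. FKBP5 rose by 1.45 (SE 0.06, adjusted p = 2.8e-08), to 2.74 times its vehicle level, and ZBTB16 by 2.18 (SE 0.07, adjusted p = 1.1e-08), to 4.53 times. CRISPLD2 rose by 1.84 (SE 0.16, adjusted p = 4.3e-06), KLF9 by 1.40 (SE 0.05, adjusted p = 2.6e-08) and BCL6 by 1.33 (SE 0.08, adjusted p = 2.9e-07). TSC22D3 rose by 1.18 (SE 0.06, adjusted p = 2.2e-07) and SGK1 by 1.11 (SE 0.07, adjusted p = 7.8e-07).

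Smaller rises on MYC silencing were those of CEBPD, 0.41 on the log2 scale (SE 0.14, adjusted p = 0.031), and NR3C1, 0.29 (SE 0.07, adjusted p = 0.0039). DUSP1 gave 0.06 (SE 0.10, adjusted p = 0.62). In all, 9 of 10 genes passed, 9 higher and 0 lower, where 58.5% of 19951 genes passed, 30.3% higher and 28.1% lower. Both ZBTB16 and CRISPLD2 also exceeded a log2 fold change of 1.5, as 7.06% of genes did. The median log2 fold change was 1.25 over the 10 genes and 0.01 over all genes, and the groups did not overlap for 8 of the 10, against 59.4%. CEBPD missed the threshold without vehicle replicate 2 (adjusted p = 0.11), without vehicle replicate 3 (adjusted p = 0.15) and without DOX replicate 2 (adjusted p = 0.12), where its log2 fold change was 0.24.

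The effects of DOX in the 2 lines differed for 9 of the 10 genes, and the effect under MUC1 silencing was the lower for each of the 9. By edgeR's interaction test over 12 libraries, 52.9% of 21585 genes passed, 26.9% lower. For 4 of the 10 the difference was below -1.5 as well, as for 8.56% of genes. The difference was -3.14 on the log2 scale for CRISPLD2 (SE 0.18, adjusted p = 9.4e-11), -2.45 for TSC22D3 (SE 0.10, adjusted p = 2.3e-12), -2.36 for ZBTB16 (SE 0.11, adjusted p = 8.6e-12) and -1.95 for KLF9 (SE 0.08, adjusted p = 1.5e-12). For FKBP5 it was -1.33 (SE 0.07, adjusted p = 5.4e-11), for CEBPD -1.30 (SE 0.17, adjusted p = 4.5e-06) and for BCL6 -1.14 (SE 0.09, adjusted p = 8.4e-09). NR3C1 differed by -0.28 (SE 0.08, adjusted p = 0.0065) and DUSP1 by -0.26 (SE 0.12, adjusted p = 0.092), while SGK1, which rose in both lines, gave 0.05 (SE 0.09, adjusted p = 0.66).

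Of these differences, that of DUSP1 was lost in 5 of 7 other settings and in 8 of 12 fits with a library left out. The value over the 7 settings ranged from -0.29 to -0.05, with adjusted p from 0.054 to 0.72, the smallest difference by library size alone. With a library left out it passed in 4 fits, those without replicate 2 of either tet-MUC1shRNA group or replicate 1 of either tet-MYCshRNA group. By library size alone, which moved the median of all genes to 0.25, that of NR3C1 was lost (-0.07, adjusted p = 0.49) and SGK1 passed (0.25, adjusted p = 0.020). The lines also differed at baseline, since the vehicle-treated tet-MYCshRNA cells held less FKBP5, ZBTB16, TSC22D3, KLF9, BCL6, SGK1, CRISPLD2, DUSP1 and NR3C1 than the vehicle-treated tet-MUC1shRNA cells in every library. CEBPD had the higher mean in the tet-MYCshRNA line, 103 against 82.9 CPM, and its libraries overlapped.

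The machinery around the receptor was followed in lists of its chaperones, related steroid receptors, coregulators and steroid-handling enzymes, and its other targets in lists of 30 induced and 14 repressed genes, 73 genes in all. Receptor chaperones, the HSP90 and HSP70 proteins and their partners that hold the receptor ready for hormone, fell with both silenced genes. On MYC silencing 9 of 10 fell and 0 rose, where 28.1% of all genes tested passed as lower, and their median was -0.73 on the log2 scale. In the tet-MUC1shRNA line 8 of 10 fell, against 31.6% of all genes, and 1, the co-chaperone gene BAG1, rose, with a median of -0.37. With GO-203 6 of 10 fell, against 12.9% of all genes, and BAG1 rose, with a median of -0.20. In 3D vs. 2D cells 5 of 10 were higher and 1 lower, with a median of 0.12, near the share of all genes that passed in either direction, 63.7%. Among them HSP90AB1, an HSP90 gene, fell by 1.01 on MYC silencing, and FKBP4, the co-chaperone that competes with FKBP5 for the receptor complex, fell by 1.19. BAG1, HSP90AB1 and FKBP4 were named after their values were seen.

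NR3C2, the mineralocorticoid receptor gene, did not exceed a group mean of 2.71 CPM, and PGR was too low to test. Among 11 coregulators, 4 were higher and 4 lower in 3D, 5 and 5 on MUC1 silencing, 2 and 2 with GO-203 and 7 and 2 on MYC silencing. Of all genes tested, 63.7% passed in either direction in 3D, 62.2% on MUC1 silencing, 24.1% with GO-203 and 58.5% on MYC silencing, so the shares of the coregulators in 3D and with GO-203 read as no result about them. NCOA2, a coactivator of the receptor, was lower in 3D, at 62.3 CPM against 148 CPM in 2D, whereas its relative NCOA3 was higher, at 404 CPM against 127 CPM, and so was NRIP1, a corepressor, at 10.0 CPM against 1.85 CPM. NCOA3 and NRIP1 were named after their values were seen. Of the 3 steroid-handling genes tested, 0 rose and 1 fell in 3D, 1 rose and 2 fell on MUC1 silencing, 1 rose and 0 fell with GO-203, and 1 rose and 1 fell on MYC silencing. The gene that fell on MYC silencing, HSD11B2, passed the filter on low counts through the vehicle libraries alone, with 34 counts with DOX.

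The other induced targets moved with the members in part. In 3D vs. 2D cells 22 of 27 tested were higher and 3 lower, where 63.7% of all genes passed in either direction, and the median log2 fold change was 2.38. These counts are a description and nothing is read from them, since the members were chosen with this contrast in view and the lists were drawn up with its results known. PDK4, the kinase that closes pyruvate dehydrogenase, was at 0.0709 CPM in 2D and 617 CPM in 3D. SCNN1A, a sodium channel subunit, was at 0.0267 and 13.8 CPM, and TFCP2L1, a transcription factor of epithelia and stem cells, at 0.0267 and 5.77 CPM. All 3 passed the filter on low counts through the 3D libraries alone. On MYC silencing 18 of 28 rose and 5 fell, with a median of 0.81, where 30.3% of all genes passed as higher and 28.1% as lower. PDK4 rose by 3.41 there (SE 0.10, adjusted p = 6.3e-09), TFCP2L1 by 2.78 (SE 0.18, adjusted p = 7.9e-07) and RASD1, a small GTPase named for its induction by dexamethasone, by 3.98 (SE 0.22, adjusted p = 2.6e-07). FAM107A and KLF15 are among the 18 that rose but passed the filter on low counts through the DOX libraries alone. With vehicle they held 16 and 26 counts in all, and they are named for this limit.

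On MUC1 silencing 16 of 27 induced targets rose and 8 fell, with a median of 0.29, where 30.7% of all genes passed as higher and 31.6% as lower. SCNN1A rose there by 3.26 (SE 0.11, adjusted p = 6.4e-16), and GPX3, a secreted glutathione peroxidase, by 1.24 (SE 0.18, adjusted p = 5.4e-06). With GO-203 10 of 26 rose and 4 fell, with a median of 0.03, where 11.1% of all genes passed as higher and 12.9% as lower. FOXO1, a transcription factor of fasting metabolism, rose by 0.63 (SE 0.07, adjusted p = 3.1e-07) and TFCP2L1 by 0.66 (SE 0.12, adjusted p = 4.1e-04), while ANGPTL4, an inhibitor of lipoprotein lipase, fell by 1.01 (SE 0.06, adjusted p = 8.1e-11).

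**Figure D3:**
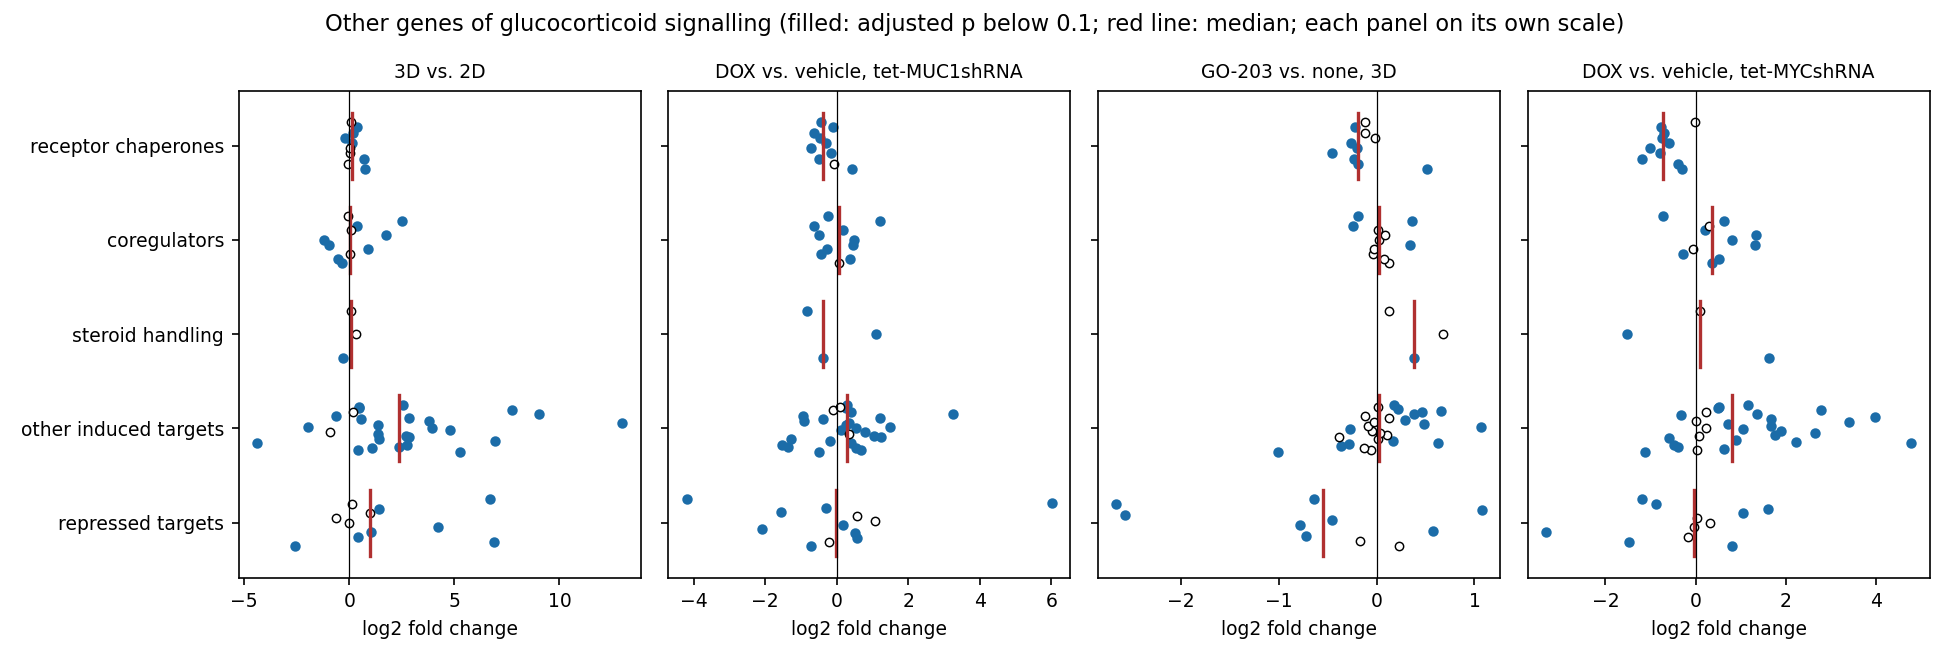
Log2 fold change (horizontal axis) of the tested genes of 5 of the lists in 4 comparisons, each panel on its own scale, with filled points past an adjusted p of 0.1 and a red line at the median of each list. The chaperone points lie mostly left of 0 on MYC silencing, with a median of -0.73, and the induced targets mostly right of 0 in 3D vs. 2D, with a median of 2.38, where several were close to 0 CPM in 2D.

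The repressed targets, cytokine, chemokine and protease genes that the receptor is known to hold down, changed in either direction in each comparison. In 3D 6 of 11 tested were higher and 1 lower, where 63.7% of all genes passed in either direction. The neutrophil chemokine gene CXCL8 was at a mean of 7.22 CPM in 2D and 129 CPM in 3D. PTGS2, the inducible cyclooxygenase, was at 0.0534 and 5.34 CPM, and the chemokine gene CCL20 at 0.0812 and 9.68 CPM. With 8 and 13 counts in all of 2D, PTGS2 and CCL20 passed the filter on low counts through the 3D libraries alone, so their place among the 6 is a description. The 1 lower gene was the chemokine gene CCL2, at 15.1 CPM in 2D and 2.45 CPM in 3D. CXCL8, PTGS2 and CCL20 were named here after their values were seen. On MUC1 silencing 4 rose and 5 fell of 12, against 62.2% of all genes in either direction. PTGS2 fell by 4.20 (SE 0.12, adjusted p = 1.2e-16), CXCL8 by 2.08 (SE 0.06, adjusted p = 2.0e-16) and IL6 by 1.56 (SE 0.11, adjusted p = 2.5e-10). MMP3, stromelysin, is among the 4 that rose but passed the filter on low counts through the DOX libraries alone, with 26 counts and a mean of 0.180 CPM with vehicle and 12.9 CPM with DOX.

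On MYC silencing 3 of 11 repressed targets rose and 4 fell, a share near the 58.5% of all genes that passed. CXCL8 fell by 3.32 (SE 0.11, adjusted p = 1.2e-08), the related chemokine gene CXCL1 by 1.47 (SE 0.06, adjusted p = 5.7e-08) and PTGS2 by 1.19 (SE 0.18, adjusted p = 2.2e-04). With GO-203 2 of 10 rose and 6 fell, where 11.1% of all genes passed as higher and 12.9% as lower. IL1B is among the 6 that fell but passed the filter on low counts through the untreated 3D libraries alone. Its mean was 0.0452 CPM with GO-203 and 0.266 CPM without, and it is named for this limit. IL6 rose by 1.07 (SE 0.09, adjusted p = 2.5e-08), CXCL8 fell by 0.78 (SE 0.07, adjusted p = 1.0e-07) and the collagenase gene MMP1 fell by 2.67 (SE 0.25, adjusted p = 5.8e-08), from 3.83 to 0.600 CPM.

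The genes with the pattern most like FKBP5 across the 7 groups were ABLIM3, PDK4, F3, SRGN and GLUL, by the root mean square difference of centred log2 group means over 22692 genes, at 1.10, 1.27, 1.58, 1.69 and 1.82. Among the members the closest was ZBTB16, at 1.87, followed by TSC22D3, at 3.27. ABLIM3, which encodes an actin-binding LIM protein, had a mean of 0.0534 CPM in 2D and of 665 to 971 CPM in the mammosphere groups. F3, tissue factor, was listed at 0 in 2D and at 64.8 to 142 CPM in mammospheres. SRGN, the proteoglycan serglycin, was at 0.293 CPM in 2D and at 477 to 1112 CPM in mammospheres. GLUL, glutamine synthetase, was at 0.435 CPM in 2D and peaked at 2986 CPM in DOX-treated tet-MYCshRNA cells. PDK4 went from 134 CPM in vehicle-treated to 1440 CPM in DOX-treated tet-MYCshRNA cells, a wider step than that of FKBP5. The closeness to FKBP5 is a description over 7 group means, set mostly by the 2D values.

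**Figure D4:**
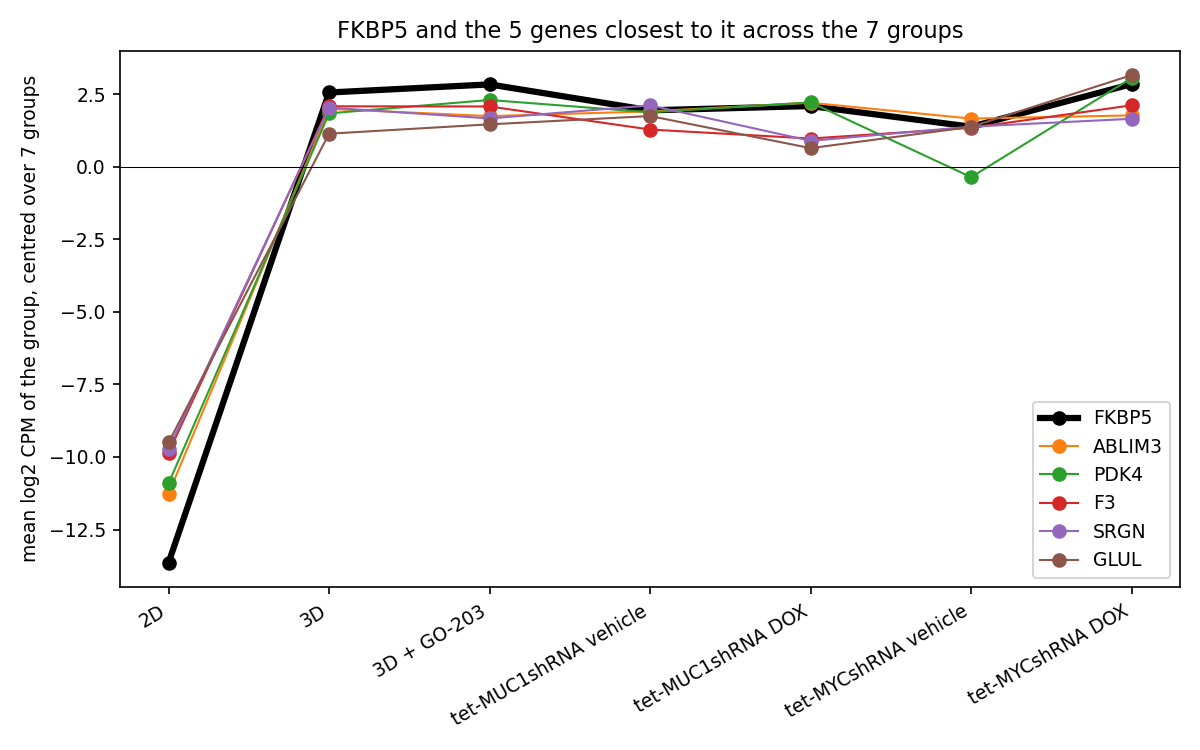
Mean log2 CPM of each of the 7 groups (vertical axis), centred on the gene's own mean, for FKBP5 and the 5 genes closest to it. All lines drop in 2D and stay high in the 6 mammosphere groups, with PDK4 lower in vehicle-treated tet-MYCshRNA cells.

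The DNA around the start sites was read from GRCh38, since the receptor binds a known sequence, for 9 members without CEBPD. Searched on both strands within 100000 bases of the start site, the response element AGAACA, 3 free bases and TGTTCT was found at 0 of 9 members and at 3.55% of 13658 expressed protein-coding genes. With GGTACA as the first 6 letters it was found at 0 of 9 and 2.61%, and with GGAACA at KLF9 alone and 3.95%. A search allowing at most 1 letter different from AGAACA, 3 free bases and TGTTCT, added after the exact letters had been searched, found a match at 5 of 9 members and at 56.2% of genes. TSC22D3 had 6 matches, DUSP1 and KLF9 2 each, and FKBP5 and CRISPLD2 1 each, where the median gene had 1. These are matches of letters and not known binding sites, and the window leaves out part of the FKBP5 gene itself.

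The matches shown are the exact one at KLF9, the intronic ones of TSC22D3 with an intact AGAACA and the only one at FKBP5, with the matching 15 letters in capitals. The KLF9 match lies at chr9:70347360-70347388, plus strand, 67283 bases downstream of the start site and inside the gene SMC5. The TSC22D3 matches lie in introns at chrX:107767837-107767865 and chrX:107744259-107744287, minus strand, 9491 and 33069 bases downstream. The FKBP5 match lies at chr6:35820060-35820088, minus strand, at -91491 bases, which is upstream of the start site, and inside the gene LHFPL5.
KLF9: ttcctaaGGAACACAATGTTCTgtgcctt
TSC22D3, 9491 bases: atggcccAGAACATACTGTGCTgtcccaa
TSC22D3, 33069 bases: ctatctcAGAACATAGTGTGCTatttcca
FKBP5: acttctaAAAACAGTCTGTTCTtgtgtgc

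The promoter at the most upstream listed start site of FKBP5 is shown because the gene was close to silent in 2D and among the most counted in mammospheres. Its 250 bases before the start site, from RefSeq (GRCh38.p14, chr6:35728584-35728833, minus strand), have a GC content of 57.6%. They hold none of the 15-letter forms searched, so no letters are in capitals. The 6 letters AGAACA, read on either strand, begin directly after these 250 bases.
FKBP5 promoter: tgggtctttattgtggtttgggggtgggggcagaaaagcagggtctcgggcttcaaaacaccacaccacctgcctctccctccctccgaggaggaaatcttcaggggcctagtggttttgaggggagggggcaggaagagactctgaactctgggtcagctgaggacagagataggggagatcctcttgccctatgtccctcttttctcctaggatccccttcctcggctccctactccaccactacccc
Among 21 promoters of 8 member genes in the RefSeq table, 0 held a form with at most 1 letter different, against 0.165% of 35116 promoters, and 3 held the 6-letter core AGAACA on either strand, against 14.8%.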

How the data were processed

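Total RNA of 21 BT-549 cultures was sequenced as stranded mRNA libraries. The authors deposited raw counts, for which STAR aligned the reads to GRCh38 and featureCounts counted them. The submitters' processing notes give STAR 2.7.3a, and the study's methods name another version. The annotation, the strand setting and the treatment of multimapping reads are not given in the sources used here. Genes without a value were read as 0. Such genes numbered 6498 for 2D and untreated 3D cells, 7587 for GO-203, 4952 for tet-MUC1shRNA and 5761 for tet-MYCshRNA cells.

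Groups came from the sample labels. In R 4.3.3, each comparison was fitted on its own libraries with edgeR 4.0.16 (filterByExpr, TMM factors, quasi-likelihood test, Benjamini-Hochberg adjustment over all genes tested), and the SE is the log2 fold change divided by the square root of F. Genes passed at an adjusted p below 0.1, and a log2 fold change beyond 1.5 was counted in addition. The steps were tested on simulated data. Nothing in the labels says that the cultures were independent, so p-values measure the spread between these samples.

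The members and lists were chosen with earlier results of these data known. From the lists, the 3 largest rises and the 3 largest falls per comparison were named, among genes past the threshold whose groups did not overlap and whose mean normalized count was at least 100. Of the genes close to FKBP5, the nearest 5 were named (prior count of 2). Positions and exon lengths are those of the GENCODE annotation supplied for GRCh38. Alternatives were DESeq2 1.42.0, other scalings (RLE factors or library size alone), other filters, a fit of all 21 libraries, the replicate number as a block, and each library left out. The ratios of counts without a 2D library were added after the counts were seen. Some genes of the lists are not reported here.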

Additional observations from a re-analysis of the deposited data

Results flagged for a closer look

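The effect of DOX differed between the tet-MUC1shRNA and tet-MYCshRNA lines for 9 members by edgeR's interaction test. Given as the effect in the tet-MUC1shRNA line minus that in the tet-MYCshRNA line, on the log2 scale, the differences were -3.14 for CRISPLD2, -2.45 for TSC22D3, -2.36 for ZBTB16, -1.95 for KLF9, -1.33 for FKBP5, -1.30 for CEBPD, -1.14 for BCL6, -0.28 for NR3C1 and -0.26 for DUSP1. CRISPLD2, TSC22D3, ZBTB16, KLF9 and CEBPD fell in the first line and rose in the second, FKBP5 and BCL6 rose in both and more in the second, and NR3C1 and DUSP1 each passed in a single line. The fall of ZBTB16 was lost in 2 of 7 other settings and in 3 of 6 fits with a library left out. The rise of CEBPD was lost in 3 of 6 fits with a library left out, and the DUSP1 difference in 5 of 7 other settings. The lines also differed in passage, 6 and 8, and in vehicle-treated levels, and their part in these differences was not tested.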

How the results depend on the processing

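Over the single-gene values of the tested comparisons, 545 of 580 alternatives kept direction and side of the threshold, 26 fell below it, 7 came past it and 2 turned the sign. Those 2 were DUSP1 on MYC silencing, -0.00 without vehicle replicate 3, with a range of -0.031 to 0.15 over the libraries left out, the lowest without DOX replicate 2, and no value past the threshold. With a log2 fold change of 1.5 required, members passing came to 0 on MUC1 silencing, 0 with GO-203, 2 on MYC silencing and 4 for the difference, and list genes to 24 in 3D vs. 2D, 7 on MUC1 silencing, 2 with GO-203 and 15 on MYC silencing, against 49, 56, 35 and 52 without it. With 1 library left out, members passing ranged from 8 to 9 on MUC1 silencing, from 7 to 7 with GO-203, from 8 to 9 on MYC silencing and from 8 to 9 for the difference. By library size alone the mean FKBP5 level was 2590 CPM in DOX-treated tet-MUC1shRNA and 4029 CPM in DOX-treated tet-MYCshRNA cells, and 4030 CPM in the latter with RLE factors. Same-numbered replicates showed little shared deviation (mean correlations of -0.02, 0.02, 0.04 and -0.09). With 3 cultures a group, these values do not settle whether the numbers pair the cultures. With the replicate block, members passing were 9 on MUC1 silencing, 8 with GO-203, 9 on MYC silencing and 8 for the difference, where DUSP1 was lost. The filter of 10 counts in every library removed FKBP5 and ZBTB16 from 3D vs. 2D, and left 6 members beyond a log2 fold change of 1.5. At 2 counts in all of 2D, depth limits any ratio for these genes. The causes of these changes were not tested.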
